A study of Mus musculus with 16 samples.

Results

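The regions described here are stretches of the mouse genome near the end of a protein-coding gene at which CUT&RUN gave a peak for each of 3 transcription factors, Foxn3, Foxn4 and Rfx3, in embryonic retina. They were selected on measured values: all peaks of the 3 deposited lists that overlapped by at least 1 bp were merged, and a merged region was kept when it held a peak of every list and its midpoint lay within 1 kb of either end of a RefSeq protein-coding gene. This gave 530 regions of 6155 in all. Peaks of all 3 lists also met at 345 regions away from gene ends, so that 60.6% of the 875 regions with every factor lay at a gene end. The 530 regions held 539 Foxn3 peaks (19.3% of that list), 537 Foxn4 peaks (18.2%) and 532 Rfx3 peaks (13.4%).

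CUT&RUN uses an antibody to guide micrococcal nuclease to a protein on chromatin, so that DNA beside the protein is released and sequenced. Retinas of embryonic day 16 (E16) CD-1 mice, an outbred stock, were pooled and dissociated, and about 300000 live cells entered each assay. The 8 antibody libraries comprised 4 for Foxn3, 2 for Foxn4 and 2 for Rfx3, and another 8 used immunoglobulin G (IgG): 4 rabbit libraries beside Foxn3, 2 rabbit libraries beside Rfx3 and 2 mouse libraries beside Foxn4. Digestion lasted 1 h, and about 12 h for Foxn4 and mouse IgG, so the Foxn4 antibody, its digestion time and its control species cannot be told apart. Each factor has 1 peak list with no values for single libraries, and the IgG libraries were not analysed here. Replicate error can therefore be given for none of the values, read depth is unknown, and intervals and p-values describe these lists only.

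Foxn3 and Foxn4 are forkhead proteins of the Foxn group, which is known to bind a distinct sequence, the forkhead-like (FHL) core, and Foxn3 also binds the classical forkhead core. Foxn4 acts in retinal progenitors and is needed for amacrine and horizontal cells, while Foxn3 is best known as a repressor linked to the cell cycle checkpoint. Rfx3 is a winged-helix factor that binds the X-box, a paired half-site found in promoters of genes for the cilium, the microtubule-based organelle that receives Hedgehog signals and becomes the outer segment of photoreceptors.

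Promoter sequence was compared over the 458 regions with a RefSeq start sequence within 1 kb, a window from 250 bases before to 50 bases after the gene start in GRCm38.p6, the assembly of mm10. The other 72 regions had none and were left out. Each promoter was searched on both strands for 4 motifs. The FHL core was taken as GACGC and the forkhead core as GTAAACA. The X-box half-site was taken as GTTGCC. A full X-box was a half-site of the form GTTNCC and, after 0 to 3 bases, its inverted counterpart GGNAAC, so that a full X-box can also hold the half-site searched above. The promoters below are the 250 bases before the start of the 6 regions of highest shared rank (explained with the scores) that have a factor motif in those bases and no annotated gene overlapping them. Capitals mark matches to these motifs and to the CCAAT box, which the factor NFY binds, on either strand, so that a box on the other strand reads as its reverse complement.
Cbx8 (chr11:119040914-119041163, strand -): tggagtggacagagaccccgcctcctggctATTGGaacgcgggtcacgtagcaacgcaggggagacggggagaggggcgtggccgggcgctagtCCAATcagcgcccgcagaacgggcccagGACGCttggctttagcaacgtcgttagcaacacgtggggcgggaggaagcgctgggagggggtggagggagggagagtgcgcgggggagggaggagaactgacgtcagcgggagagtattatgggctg
Timm13 (chr10:80900970-80901219, strand -): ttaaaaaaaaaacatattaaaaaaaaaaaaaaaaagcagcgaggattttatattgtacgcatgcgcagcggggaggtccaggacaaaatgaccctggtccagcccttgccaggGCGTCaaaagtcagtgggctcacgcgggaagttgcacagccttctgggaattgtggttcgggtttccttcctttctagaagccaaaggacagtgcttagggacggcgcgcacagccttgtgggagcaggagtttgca
Ubxn6 (chr17:56079334-56079583, strand -): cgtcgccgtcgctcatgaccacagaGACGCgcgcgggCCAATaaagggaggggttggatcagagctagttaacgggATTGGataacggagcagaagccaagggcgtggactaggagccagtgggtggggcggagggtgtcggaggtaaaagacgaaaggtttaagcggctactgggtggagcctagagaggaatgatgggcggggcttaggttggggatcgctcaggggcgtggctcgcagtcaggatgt
Six6 (chr12:72939632-72939881, strand +): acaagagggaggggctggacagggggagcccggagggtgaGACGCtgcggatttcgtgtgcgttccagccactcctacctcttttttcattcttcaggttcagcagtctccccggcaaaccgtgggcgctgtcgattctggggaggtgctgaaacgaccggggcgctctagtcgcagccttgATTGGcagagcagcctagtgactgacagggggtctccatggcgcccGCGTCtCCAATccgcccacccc
Dnajc16 (chr4:141790645-141790894, strand -): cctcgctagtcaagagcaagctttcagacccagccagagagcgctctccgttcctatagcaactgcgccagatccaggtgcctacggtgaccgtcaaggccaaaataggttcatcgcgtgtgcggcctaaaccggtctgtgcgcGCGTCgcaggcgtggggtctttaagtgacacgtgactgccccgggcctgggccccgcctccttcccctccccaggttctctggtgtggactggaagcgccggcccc
Dynll1 (chr5:115300991-115301240, strand -): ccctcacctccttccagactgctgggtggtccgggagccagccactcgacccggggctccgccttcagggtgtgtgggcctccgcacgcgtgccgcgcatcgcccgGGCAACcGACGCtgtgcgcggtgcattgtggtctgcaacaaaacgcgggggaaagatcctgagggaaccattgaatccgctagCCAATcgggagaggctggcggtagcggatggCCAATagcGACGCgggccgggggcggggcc

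Of these 6 genes, Cbx8 encodes a Polycomb protein, Timm13 a chaperone of mitochondrial import, Six6 a homeodomain regulator of eye development and Dynll1 a dynein light chain. All 6 windows hold an FHL core, only Dynll1 has an X-box half-site, and 4 of them also hold a pair of CCAAT boxes. The next sequences belong to the 2 regions of highest shared rank with none of the factor motifs in those bases, again where no annotated gene overlaps them. Tuba1a, an alpha-tubulin of growing neurons, has a CCAAT box, and Rab40c, a small GTPase, has a pair of them close together.
Tuba1a (chr15:98953502-98953751, strand -): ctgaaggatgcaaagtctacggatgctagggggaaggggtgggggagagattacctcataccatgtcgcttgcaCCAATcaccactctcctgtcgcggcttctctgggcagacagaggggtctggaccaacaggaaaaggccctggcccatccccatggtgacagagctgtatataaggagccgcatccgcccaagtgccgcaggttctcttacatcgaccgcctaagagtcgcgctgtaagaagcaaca
Rab40c (chr17:25919715-25919964, strand -): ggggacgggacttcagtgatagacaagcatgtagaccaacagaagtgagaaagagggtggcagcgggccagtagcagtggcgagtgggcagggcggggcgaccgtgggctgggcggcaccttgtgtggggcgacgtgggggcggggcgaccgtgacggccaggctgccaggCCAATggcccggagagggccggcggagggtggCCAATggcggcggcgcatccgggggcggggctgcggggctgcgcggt

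The FHL core was present in 252 of 458 promoters (55%, 95% Wilson interval 50.4% to 59.5%). Among all 17492 protein-coding promoters with a sequence the share was 33.5%. Promoters of gene-end regions with Foxn3 and Rfx3 but no Foxn4 had it in 56.7% (371 of 654) and those with Foxn4 only in 58.8% (80 of 136). Neither difference passed the threshold of 0.05 by Fisher's exact test: the odds ratio was 0.933 (95% interval 0.734 to 1.19) in the first case and 0.856 (0.581 to 1.26) in the second, with adjusted exact p = 0.697 for both. Against promoters with Rfx3 only, 44.3% (172 of 388), the share was higher, with an odds ratio of 1.54 (1.17 to 2.02, adjusted exact p = 0.00576). Among peaks at or above the median score of their list this odds ratio was again 1.54 but missed the threshold (adjusted exact p = 0.15). In that setting, here and below, regions were merged and grouped anew from the remaining peaks, so a region could change its group. All tests of factor motifs were two-sided and adjusted over 12 comparisons by the Benjamini-Hochberg method. Regions are not replicates of a condition, and neighbouring promoters are not independent.

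The forkhead core was rare. It was found in 8 of the 458 promoters (1.75%, 0.888% to 3.41%) against 2.94% of all promoters. In none of the 3 comparisons did its share differ past the threshold (adjusted exact p = 0.416, 0.803 and 0.755), but with so few matches the intervals were wide, such as 0.246 to 1.29 for the odds ratio against regions with Foxn3 and Rfx3 but no Foxn4. In what follows, promoters or regions "without Foxn4" are those with Foxn3 and Rfx3 but no Foxn4.

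**Figure D1:**
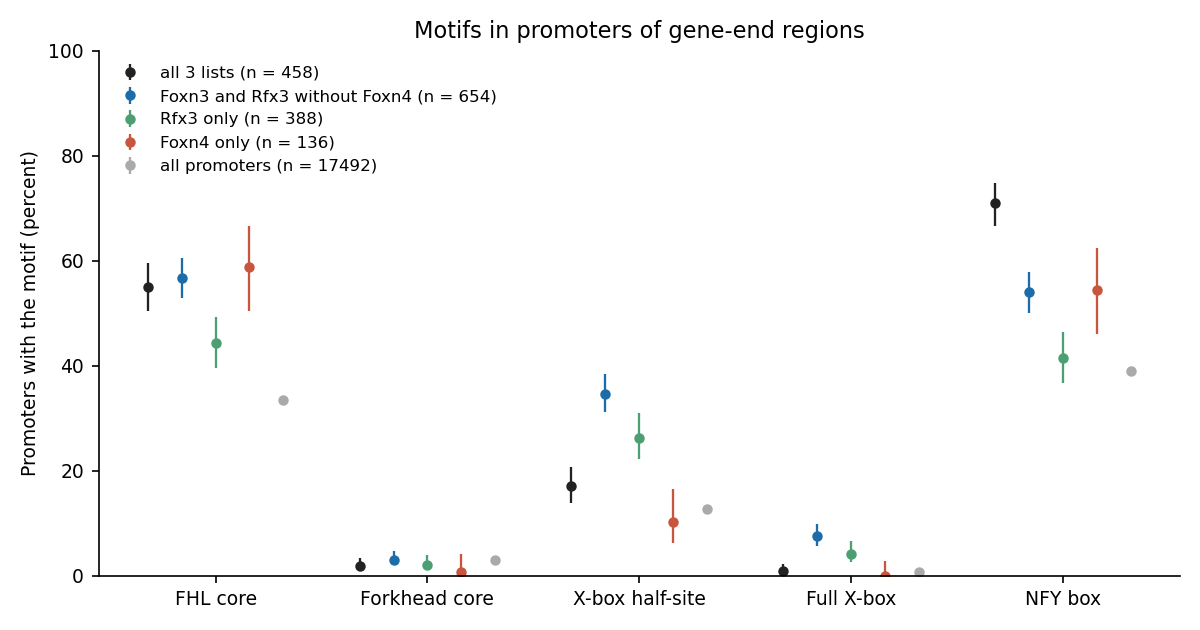
Share of promoters holding each motif (vertical axis, percent) in gene-end regions with peaks of all 3 lists, in 3 other groups of gene-end regions and in all promoters. Points are shares and bars 95% Wilson intervals. The X-box half-site is at 17% in the regions with all 3 peaks and at 34.7% in those with Foxn3 and Rfx3 but no Foxn4, while the NFY box is at 71% and 54%.

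The X-box was less common in these promoters than in both groups that had Rfx3 but no Foxn4. The half-site was present in 78 of 458 promoters (17%, 13.9% to 20.7%), not far above the 12.7% of all promoters. Where Foxn3 and Rfx3 met without Foxn4 it was present in 227 of 654 (34.7%, odds ratio 0.386, 0.288 to 0.517, adjusted exact p = 5.09e-10). Rfx3-only promoters had it in 102 of 388 (26.3%), an odds ratio of 0.576 (0.413 to 0.802) at adjusted exact p = 0.00528. Against Foxn4 only (14 of 136, 10.3%) the difference missed the threshold, with an odds ratio of 1.79 (0.977 to 3.27, adjusted exact p = 0.119), and with peaks at or above the median score it passed (odds ratio 3.14, adjusted exact p = 0.00238). Promoters with Foxn3 only, which were outside the tests, had a half-site in 17 of 148 (11.5%). So were those with Foxn4 and Rfx3 but no Foxn3, at 10 of 75 (13.3%), and with Foxn3 and Foxn4 but no Rfx3, at 7 of 46 (15.2%). A low share was thus not particular to the regions with all 3 peaks.

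Full X-boxes were at background in the regions with every factor. They occurred in 4 of 458 promoters (0.873%, 0.34% to 2.22%), beside 0.76% of all promoters. The share was 7.49% (49 of 654) where Foxn3 and Rfx3 met without Foxn4 (odds ratio 0.109, 0.039 to 0.304, adjusted exact p = 2.06e-07) and 4.12% (16 of 388) with Rfx3 only (odds ratio 0.205, 0.0679 to 0.618, adjusted exact p = 0.00576). Among peaks at or above the median score the latter was 0.224 and missed the threshold (adjusted exact p = 0.13). With Foxn4 only it was 0 of 136, which allows up to 2.21%, and with Foxn3 only, outside the tests, 0 of 148, which allows up to 2.03%. Also outside the tests, Foxn4 and Rfx3 without Foxn3 had 1 of 75 (1.33%). Foxn3 and Foxn4 without Rfx3 had 0 of 46, which allows up to 6.52%. The 4 full X-boxes are shown with their flanks, 30 bases each, the X-box in capitals, on the strand of the named gene.
Entpd1 (chr19:40612351-40612380, strand +): tggttcccGTTACCTGGCAACcgctgggag
Ccdc151 (chr9:22002647-22002676, strand -): cgcgggcgGTTTCCTTGGGAACgtgggcgg
Ccdc96 (chr5:36484582-36484611, strand +): cgccctgGTTGCCCCGGGAAACctaacagc
Tspan3 (chr9:56161035-56161064, strand -): gggacttaGTTGCCTGGGAACggcctaggg

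These X-boxes lie close to the gene start, beginning at base -7 for Entpd1, -34 for Ccdc151, 2 for Ccdc96 and 15 for Tspan3, counted from the annotated start. Entpd1 shares its region with Tctn3, a transition zone protein of the cilium, and Ccdc151 encodes a docking factor for the dynein arms of motile cilia. In all 4 regions the Foxn3 and Rfx3 peaks had ranks above 50, the rank being the share of the peak's own list with a lower score: the Foxn3 peak was above 97.7%, 97.4%, 95.6% and 85.4% of its list and the Rfx3 peak above 91.5%, 96.3%, 86% and 66.6%, in the order shown. The Foxn4 peak stood high at Entpd1 (89.1%) and Ccdc151 (86%) but low at Ccdc96 and Tspan3, above 15.4% of its list at both.

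X-box half-sites followed the height of the Foxn3 and Rfx3 peaks in the same way. Scores belong to the same peak calls that chose the regions, so the next values are a description with no test. Of 151 promoters whose Foxn3 and Rfx3 peaks both had a rank of 50 or more, 46 had a half-site (30.5%, 23.7% to 38.2%). Of 220 with both ranks below 50, 20 did (9.09%, 5.96% to 13.6%), an interval that includes the 12.7% of all promoters. Full X-boxes numbered 4 in the first set and 0 in the second, which allows up to 1.36%. The FHL core showed no such split, at 55.6% and 54.5%. Split by the Foxn4 peak instead, half-sites stood at 15.5% with a rank of 50 or more and 18.8% below that.

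The CCAAT box, 1 of 10 further promoter motifs whose 30 comparisons were added after the shares had been seen, was more common in these promoters than in all 3 groups compared. It was present in 325 of 458 promoters (71%, 66.6% to 74.9%) and in 39% of all promoters. Without Foxn4 the share was 54% (353 of 654), an odds ratio of 2.08 (1.62 to 2.69) with adjusted exact p = 1.79e-07 by Fisher's test over the 30. Rfx3 only had 41.5% (161 of 388, odds ratio 3.45, 2.59 to 4.58) with adjusted exact p = 1.57e-16. Foxn4 only had 54.4% (74 of 136, odds ratio 2.05, 1.38 to 3.03) with adjusted exact p = 0.003. Among peaks at or above the median score, the last of these no longer passed (odds ratio 1.36, adjusted exact p = 0.543). It was not particular to regions with all 3 peaks: the 46 promoters of gene-end regions with Foxn3 and Foxn4 but no Rfx3 had it in 82.6% (69.3% to 90.9%), a group outside the tests. Unlike the X-box, its share was alike at high and low Foxn3 and Rfx3 peaks, 70.2% and 70.5%.

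Many promoters had several CCAAT boxes. At least 2 were found in 229 of the 458 promoters (50%), against 24.6% without Foxn4 and 13.5% of all promoters. The boxes lay at a median position of -95 from the gene start, and the densest bin, from 90 to 70 bases upstream, held 21 boxes per 100 promoters beside 11.2 without Foxn4 and 6.72 among all promoters. The excess ran over the whole upstream window, with 10 per 100 promoters in the farthest bin against 3.67 and 2.89. Nfya, which encodes a subunit of NFY itself, is among the genes at these regions, together with Oard1 (chr17:48409392-48410355), though it was singled out after its name was seen. Median GC content was 61.7% in these promoters, 60.3% without Foxn4, 63.2% with Rfx3 only, 64.5% with Foxn4 only and 56.3% in all promoters.

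**Figure D2:**
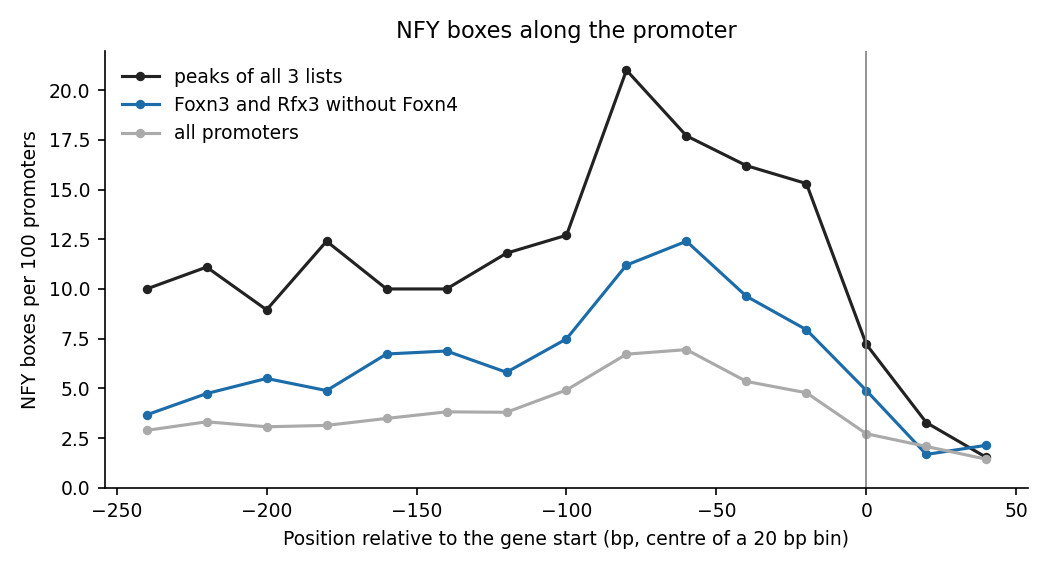
NFY (CCAAT) boxes per 100 promoters (vertical axis) in 20 bp bins along the promoter (horizontal axis, bp from the gene start, negative upstream). The line for regions with all 3 peaks stands above both others upstream of the start and reaches 21 in the bin from 90 to 70 bases upstream.

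Among the other motifs, the SP factors' GC box GGGCGG was present in 79% of the promoters against 65.9% without Foxn4 (odds ratio 1.95, adjusted exact p = 1.64e-05), 71.1% with Rfx3 only (1.53, adjusted exact p = 0.0275) and 68.4% with Foxn4 only (1.74, adjusted exact p = 0.0341), by the same Fisher's exact tests. With peaks at or above the median score none of these held, and the last turned to 0.615. The E2F site TTCCCGC, known from cell cycle genes, stood at 13.5% against 8.26% without Foxn4 (odds ratio 1.74, 1.18 to 2.56, adjusted exact p = 0.0195) and 8.25% with Rfx3 only (odds ratio 1.74, 1.11 to 2.73, adjusted exact p = 0.0428), and at 5.99% of all promoters. The ETS site CCGGAAG was less common than without Foxn4, 15.3% against 22.3% (odds ratio 0.628, 0.459 to 0.859) at adjusted exact p = 0.0163. The ZNF143 site ACTACAA (6.99% against 2.58%) and the E-box CACGTG (11.8% against 5.93%) were more common than with Rfx3 only (adjusted exact p = 0.0163 for both). Neither differed past the threshold from promoters without Foxn4, at 4.89% for ZNF143 (adjusted exact p = 0.283) and 12.4% for the E-box (adjusted exact p = 0.881). With Foxn3 only, outside the tests, the E-box stood at 33.8% (50 of 148), so it was not particular to regions with all 3 peaks. With peaks at or above the median score the E2F, ETS and ZNF143 differences also missed the threshold (adjusted exact p = 0.0607 and 0.0512 for E2F, 0.13 for ETS and 0.543 for ZNF143). The E2F difference from Rfx3 only also missed it when stratified by GC content (Mantel-Haenszel chi-square test, adjusted p = 0.0501). Within 500 bp of a gene end it missed the threshold as well (adjusted exact p = 0.054), as did ZNF143 (adjusted exact p = 0.0591). For NRF1 (GCGCATGC), YY1 (AAGATGGC), the CRE (TGACGTCA) and the TATA box (TATAAA), none of 12 comparisons passed.

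The regions lay at gene starts. Strand was known for the nearest gene of 464 regions, and the end it marked was the start of transcription in 457 (98.5%, 96.9% to 99.3%). Most other gene-end regions lay at starts too: 97.6% for Foxn3 and Rfx3 without Foxn4, 97.9% for Foxn3 and Foxn4 without Rfx3, 97.3% for Foxn3 only, 94.6% for Rfx3 only and 91.7% for Foxn4 only, and no test of these shares was made. The 7 at the far end of the nearest gene were near Gm20783, Synrg, Ttc16, Tmem107, Lin52, Car11 and Ino80b. For 4 of them, Ttc16, Car11, Ino80b and Gm20783, another protein-coding gene lies within 1 kb as well.

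Peaks sat just upstream of the start. Over the 458 regions with a start sequence, the midpoint of the Foxn3 peak lay at a median of -123.2 bp (quartiles -195.9 and -66.5, negative upstream), that of Foxn4 at -125.5 bp (-196.4 and -74.8) and that of Rfx3 at -130.8 bp (-213.8 and -55.2). The Foxn4 midpoint was upstream in 416 regions (90.8%), Foxn3 in 399 (87.1%) and Rfx3 in 397 (86.7%). The 3 medians lay closer together than the quartiles of any factor, which the choice of regions by overlapping peaks in part sets.

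**Figure D3:**
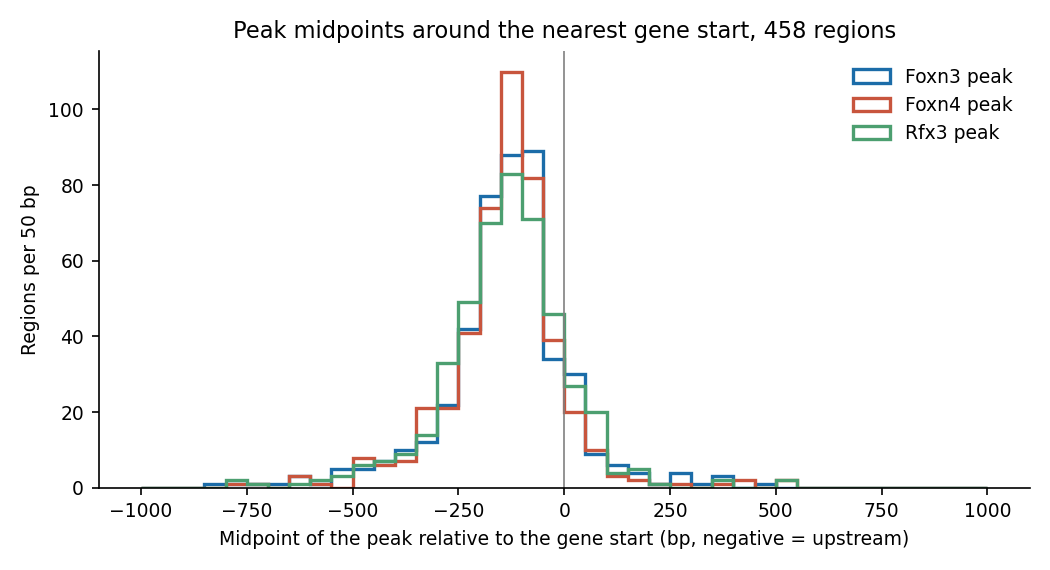
Midpoints of the Foxn3, Foxn4 and Rfx3 peaks relative to the gene start (horizontal axis, bp, negative upstream) for 458 regions, counted per 50 bp (vertical axis). The 3 outlines lie over each other, with medians from -123.2 to -130.8 bp.

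Within a region the 3 peaks lay close together. The rule joined peaks by overlap, which in part sets this closeness, so the values are a description. The spread of their midpoints, taken from the highest-scoring peak of each list, had a median of 77.8 bp (quartiles 45.1 and 125.8, range 4.5 to 785). A stretch common to all 3 peaks existed in 527 regions, with a median of 317 bp. The Foxn4 peak lay wholly inside the Rfx3 peak in 417 regions (78.7%) and inside the Foxn3 peak in 287 (54.2%). Median widths were 347 bp for Foxn4, 454.5 bp for Foxn3 and 546 bp for Rfx3, whose peak was the widest of the 3 in 392 regions. Merged regions had a median of 601.5 bp (267 to 3313).

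The closest and widest cases show the range. At Gbf1, a Golgi exchange factor, the midpoints lay 4.5 bp apart, at Trappc11 and Rwdd4a 5.5 bp and at Lrch4 7.5 bp. At Brca1 and Nbr1, a pair of genes that start side by side, the spread was 785 bp. There the highest Foxn3 peak (chr11:101551797-101552165) and the highest Foxn4 peak (chr11:101552557-101552975) did not overlap, 1 broad Rfx3 peak spanned both, and the region held 2 peaks each of Foxn3 and Foxn4. At Nlk, too, the highest peaks of the 3 lists shared no base. The next widest spreads were 752.5 bp at Gm20783 and LOC108167694, which was also the widest region at 3313 bp, and 480.5 bp at Cbx5 and Hnrnpa1.

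Every peak carries a score from the authors, on a scale not given in the sources used here, so each peak was ranked by the share of its own list with a lower score. Since peak calls chose the regions, these ranks are a description. Foxn4 peaks were ordinary to high in their list, with a median rank of 57.4 (quartiles 29.3 and 75.5), while Foxn3 (45.7, 24.6 and 74.7) and Rfx3 (39.9, 19 and 77.6) peaks had medians below 50. Where Foxn3 and Rfx3 met at a gene end without Foxn4, the median ranks were 66.9 for Foxn3 and 71.1 for Rfx3. Median scores in the regions with every factor were 28 for Foxn3 (8.41 to 1012.0), 8 for Foxn4 (2.67 to 25.8) and 60.5 for Rfx3 (17 to 2641). Foxn4 scores take few distinct values, so its ranks fall in steps.

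Foxn3 and Rfx3 peaks rose and fell together, and Foxn4 did not follow them. Across the 530 regions Spearman's rho was 0.70 between Foxn3 and Rfx3 ranks and 0.15 between Foxn4 and either, a description over regions that share the 3 lists. In the 797 gene-end regions with Foxn3 and Rfx3 but no Foxn4, rho between Foxn3 and Rfx3 ranks was 0.69. The link between Foxn3 and Rfx3 ranks was thus not particular to regions with every factor. A peak at the median score of its list ranked below 50, at 49 for Foxn3, 44.1 for Foxn4 and 49.9 for Rfx3. A rank of 50 or more is therefore stricter than a score at or above the median. Among the 530 regions, all 3 peaks had a rank of 50 or more in 99 (18.7%) and none had in 135 (25.5%). Foxn4 alone reached that rank in 116 regions (21.9%), and Foxn3 and Rfx3 without Foxn4 in 80 (15.1%). The Rfx3 ranks were spread widely, with 90 of the 530 peaks (17%) in the top 10% of that list.

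**Figure D4:**
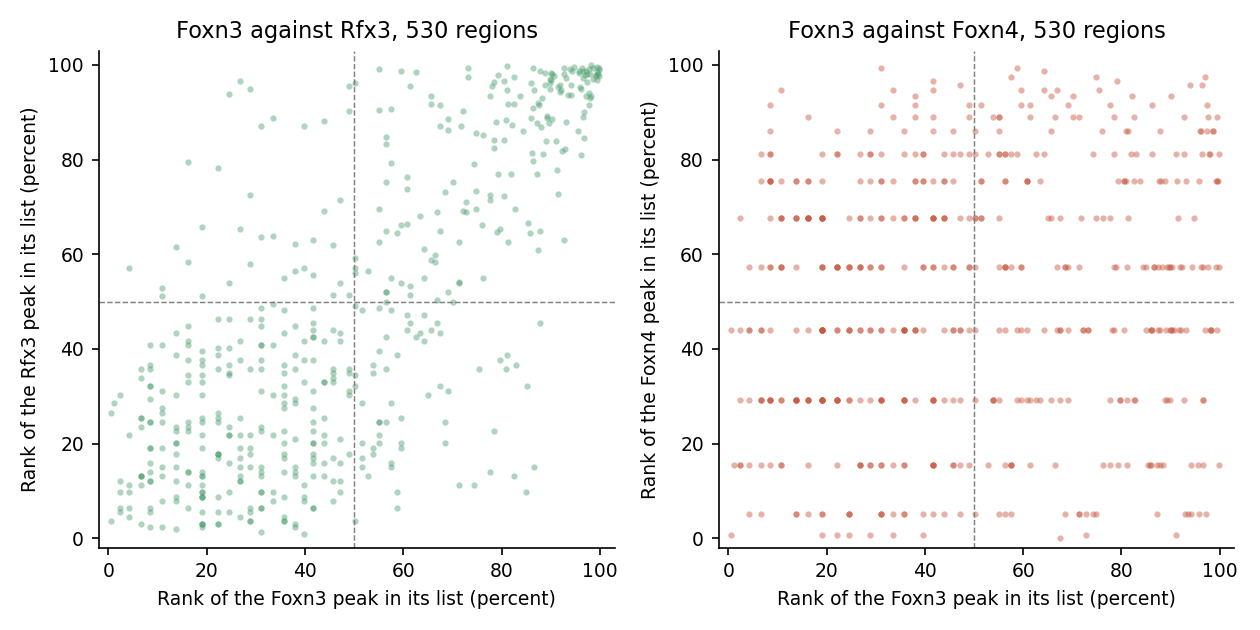
Rank of the Foxn3 peak in its list (horizontal axis, percent of peaks with a lower score) against the rank of the Rfx3 peak (left) and the Foxn4 peak (right) for 530 regions, 1 point each. Dashed lines mark rank 50. Points follow the diagonal for Rfx3, with rho 0.70, and fill the square for Foxn4, with rho 0.15.

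The regions where all 3 peaks were high are best seen through the shared rank, the lowest of a region's 3 ranks. The highest was Cbx8 (chr11:119040565-119041766), with a Foxn3 score of 244.8, a Foxn4 score of 16 and an Rfx3 score of 1470, each above at least 95.8% of its list. Next came the region of Rnf5, a ubiquitin ligase of the endoplasmic reticulum (ER), and Agpat1, an enzyme of phospholipid synthesis (176.6, 16 and 1396 in the same order). The third was between Tom1l2 and Drc3, a part of the regulatory complex of motile axonemes (269.1, 17.8 and 487). Brca1, the DNA repair gene, came next with Nbr1 (280.3, 13.3 and 949). Tuba1a followed (126.2, 14.2 and 732). These 5 regions had all peaks above 90% of their lists or at that value.

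The next 7 regions by shared rank ran from 89.1 to 86. They were those of Eaf2 and Golgb1, Tctn3 and Entpd1, Asb7 and Lins1, Cyth2, Ap3d1, Timm13 and Lmnb2, and Sec16a. Of these genes, Golgb1 encodes a Golgi tether, Cyth2 an Arf exchange factor, Ap3d1 a subunit of the AP-3 adaptor and Sec16a a scaffold of ER exit sites. They were picked from the names and do not make membrane traffic a trait of the regions. Of Vps and Trappc traffic genes, 1 of 50 (2%) had a region with every factor, against 3.03% of all protein-coding genes. At the other end of the order, Tbc1d32, a ciliary protein, had the lowest Foxn4 score of that list, 2.67, beside Foxn3 at rank 67.5 and Rfx3 at 65. Garnl3 had low peaks in all 3 lists, at ranks 0.608, 0.71 and 3.62.

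Some of the regions touched more than 1 gene end. At least 2 ends lay within 1 kb in 136 of 530 regions (25.7%, 22.1% to 29.5%). The share was 24.6% (196 of 797) without Foxn4 (odds ratio 1.06, 0.822 to 1.36) and 22.8% (42 of 184) with Foxn4 only (odds ratio 1.17, 0.786 to 1.73), with adjusted exact p = 0.698 for both. With Rfx3 only it was lower, at 15.2% (77 of 507, odds ratio 1.93, 1.41 to 2.63, adjusted exact p = 9.39e-05, Fisher's exact test adjusted over 3). In 61 regions (11.5%, 9.07% to 14.5%) the ends were starts of genes pointing away from each other, as at Brca1 and Nbr1 or Tctn3 and Entpd1. Such pairs were about as common without Foxn4 (10%, 80 of 797), with Foxn4 only (11.4%) and with Foxn3 only (12.9%). With Rfx3 only the share was 4.54%, and these shares were not tested. The 2 regions with 4 ends lay at the histone genes H2ac11 and H2bc11 and at Rspry1 with Psme3ip1 and LOC115486880.

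In all, 664 genes of 21887 protein-coding genes (3.03%) had an end within 1 kb of such a region, and 2 of them had 2 regions. That share is the background for the gene groups that follow, where a gene that shares its region with a neighbour is counted as well. The 33 lists were chosen with earlier results of these data known, so their counts are described with no test.

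Core cilium lists stood above the background, on small numbers. Of 7 genes of IFT-A, the retrograde transport complex of the cilium, 3 had a region with every factor: Ift122, Ift140 and Wdr19 (42.9%, 15.8% to 75%). Of 26 transition zone genes, whose products gate the ciliary base, 4 did (15.4%, 6.15% to 33.5%), among them Tctn3, Tmem107 and Tmem218. At Tmem107 the region lay past the far end of the gene, not at its start. Of 35 centriole and distal appendage genes 5 did (14.3%): C2cd3, Kif24, Pcm1, Sclt1 and Stil. Ciliary GTPases and cargo traffic had 3 of 19 (15.8%), Ift27, Rab8a and Tbc1d32, and the BBSome with its assembly factors 2 of 13 (15.4%), Bbip1 and Mkks. Among 8 ciliary kinases only Cdk20 had one (12.5%, 2.24% to 47.1%), an interval that includes the background.

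Single factors were counted in the same way. Of all protein-coding genes, 8.81% had an end within 1 kb of a region with a Foxn3 peak, 4.82% with a Foxn4 peak and 10.6% with an Rfx3 peak, which are the backgrounds for the next counts. Of the 26 transition zone genes 17 had Foxn3, 20 Rfx3 and 6 Foxn4, and of the 7 of IFT-A 6, 6 and 3 did. Other parts of the cilium were near the background in their share of regions with every factor. Of 90 motile cilium genes, 47 had a region with Foxn3 and 53 with Rfx3 within 1 kb, but 6 with Foxn4 and 5 with all 3 (5.56%), among them Ccdc151, Dnaaf5, Dnaic1 and Drc3. Of 18 genes of IFT-B, the anterograde complex, 10 had Foxn3, 11 Rfx3, 3 Foxn4 and 1, Ift27, all 3. Of 11 ciliary motor genes 4 had Foxn3, 7 Rfx3 and none Foxn4, so 0 had all 3, which allows up to 27.3%. Among 21 Hedgehog pathway genes only Gas1, a co-receptor, had such a region (4.76%). In total 24 genes of the 10 cilium lists had a region with every factor.

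The ciliary genes differed in which peak was low. At Drc3 all 3 peaks ranked above 93%, and at Ccdc151 they ranked 97.4, 86 and 96.3 for Foxn3, Foxn4 and Rfx3. At Tctn3 the scores were 291.6, 12.4 and 415. Foxn4 had the lowest of the 3 ranks at 14 of the 24 ciliary genes, and Foxn3 and Rfx3 at 5 each. No such count was made for the other regions, so a difference of ciliary genes from the rest was not tested. Foxn4 ranks also fall in steps, and tied peaks all take the lower value of their step. Foxn4 ranked 44.1 at Ift122 against 92.2 for Foxn3 and 94.8 for Rfx3, and 29.3 at Wdr19 (92.8 and 63). It ranked 57.4 at Cdk20 (96.6 and 89.1), 29.3 at Dnaaf5 (96.6 and 98.7) and 0.71 at Dnaic1 (91.1 and 83.9). Ift27 went the other way, with Foxn4 at 86, Foxn3 at 45.7 and Rfx3 at 62, and so did C2cd3 (91.5, 77.7 and 72.5) and Rab8a (91.5, 31 and 48.6). Ift122 shares its region with the repair gene Mbd4, Tctn3 with Entpd1, Drc3 with Tom1l2 and Ccdc151 with Prkcsh, among others. The gene concerned is uncertain at such regions.

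Of 91 DNA repair and checkpoint genes, 7 had a region with every factor (7.69%, 3.78% to 15%): Brca1, Chek2, Mbd4, Mdc1, Msh3, Mus81 and Xrcc3. After Brca1 the highest shared rank was 44.1, tied between Mbd4 and Mus81, a nuclease subunit. Mus81 had ranks of 89.8, 44.1 and 96.1 for Foxn3, Foxn4 and Rfx3. The region midpoints lay 519.5 bp from the end of Brca1 and 763 bp from that of Mus81. With the limit at 500 bp, 5 genes of the list had a region with every factor. Replication genes had 2 of 52 (3.85%), Pole3 and Gins2, close to the background.

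Regulators of the retina were at the background. Of 43 retinal regulators only Six6 had such a region (2.33%). Its peaks (chr12:72939392-72940108) scored 80.4 for Foxn3, 10.7 for Foxn4 and 179 for Rfx3, at ranks 82, 81.1 and 77, and its promoter is printed above. Of 30 Notch pathway genes only Numb, an inhibitor of Notch signalling, had one (3.33%), with ranks of 49, 57.4 and 90.2. Of the retinal genes 2 had a region with Foxn3, 5 with Foxn4 and 5 with Rfx3, and of the Notch genes 4 did for each factor.

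**Figure D5:**
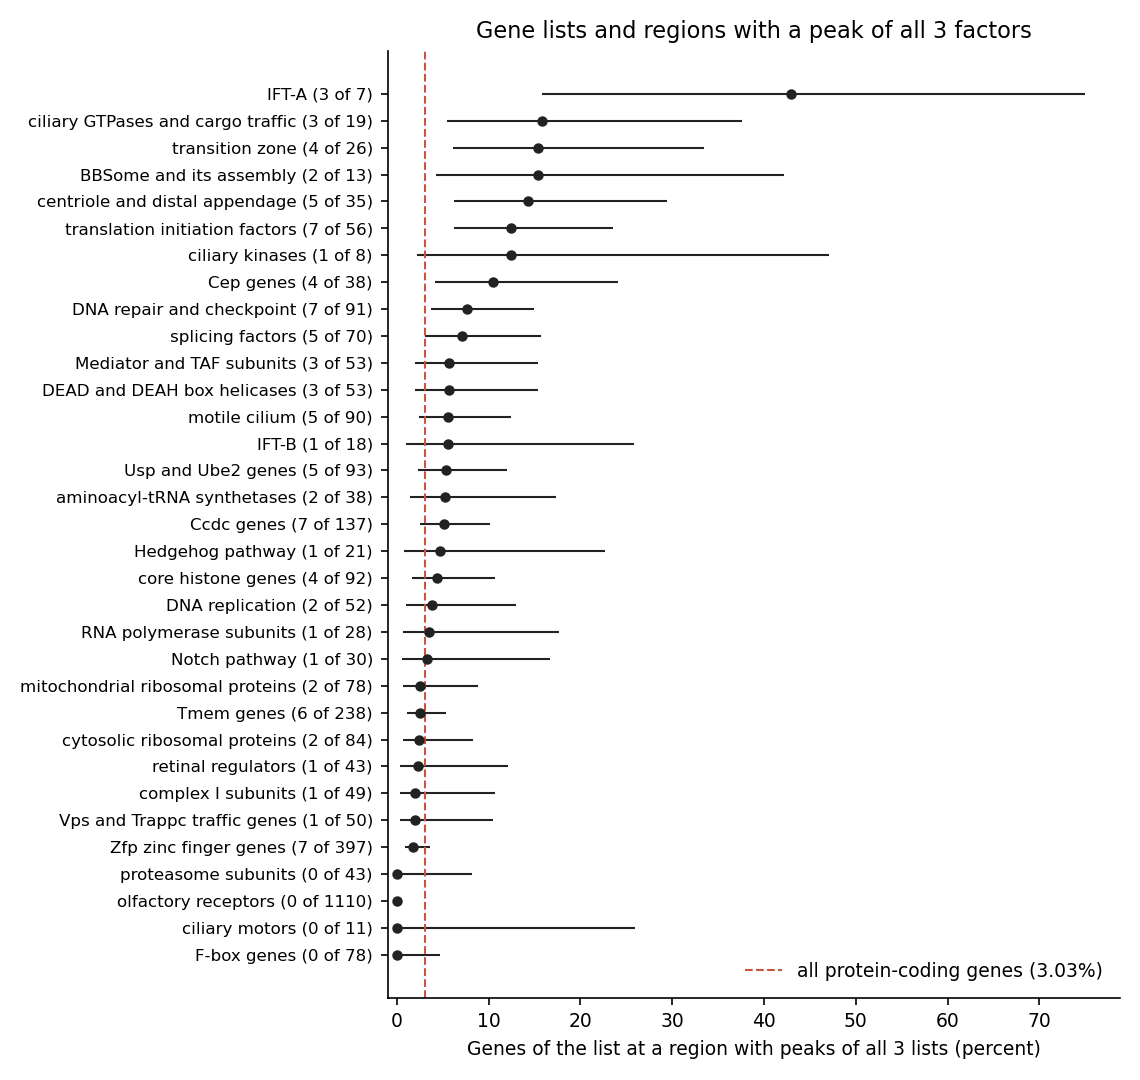
Share of the genes of each of 33 lists with an end within 1 kb of a region with peaks of all 3 factors (horizontal axis, percent; counts in the labels). Points are shares, bars 95% Wilson intervals and the dashed line the 3.03% of all protein-coding genes. Cilium lists such as IFT-A (42.9%) lie to the right and olfactory receptors at 0.

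Lists for housekeeping functions varied. Translation initiation factors had 7 of 56 genes (12.5%, 6.19% to 23.6%): Eif1, Eif2ak3, Eif2b2, Eif3f, Eif4a1, Eif5 and Eif5a. Eif2ak3, though in this list, encodes a stress sensor kinase and not an initiation factor, and is counted again with the ER genes below. Splicing factors had 5 of 70 (7.14%). Cytosolic ribosomal proteins had 2 of 84 (2.38%), mitochondrial ribosomal proteins 2 of 78 (2.56%), complex I 1 of 49 (2.04%) and the proteasome 0 of 43, which allows up to 6.98%. Cep genes had 4 of 38 (10.5%), Cep112, Cep128, Cep170 and Cep85, and Ccdc genes 7 of 137 (5.11%). Zfp zinc finger genes had 7 of 397 (1.76%) and olfactory receptors, genes of the nasal epithelium, 0 of 1110, which allows up to 0.27%. The remaining lists lay between 0 and 5.66%.

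Along the genome the share of genes with a region was highest on chromosomes 12 (5.74%, 39 of 679 genes) and 19 (5.67%, 40 of 705). It was lowest on X, with 5 of 966 (0.518%), and on Y, with 0 of 256. The closest pair of regions, at Tubb5 and Mdc1, lay 2659 bp apart. These genes belong to the gene-dense stretch from 33 to 37 Mb of chromosome 17, which held 10 regions. At the 1 kb limit, the regions just inside were those of Ccna2, with its midpoint 936 bp from the gene end and ranks of 16.2, 5.18 and 40.9 for Foxn3, Foxn4 and Rfx3, and Lin52 (939 bp; 41.6, 96.6 and 24.5). Just outside were regions near Id1 (1057 bp; 59.6, 75.5 and 92.6) and Trim45 (1073.5 bp; 6.55, 5.18 and 1.31).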

How the data were processed

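CUT&RUN peaks of E16 CD-1 retina were used as 3 deposited lists, 1 each for Foxn3, Foxn4 and Rfx3, with a position and a score per peak. The submitters' processing notes name cutadapt, Bowtie2, UMI-tools, bedtools and SEACR and the mm10 build. Their settings, the libraries behind a list, the use of IgG and the scaling of the score are not given in the sources used here. The score is the authors' deposited value, used only to rank peaks within a list.

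Peaks overlapping by 1 bp were merged with Python 3.11.15, and midpoints compared with 21887 RefSeq protein-coding genes (GRCm38.p6). Strand came from RefSeq promoter sequences, which covered 17492 genes. Where a region had several starts within 1 kb the nearest was used, and where it held several peaks of a list the highest. Shares carry 95% Wilson intervals for counting error only. Groups were compared with two-sided Fisher's exact tests (SciPy 1.17.1). Comparisons stratified by GC content used the Mantel-Haenszel chi-square test instead. Merging, motif search and tests were first tested on simulated data.

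The regions, gene lists and tests were chosen with earlier results of these data known. Named are the 12 regions of highest shared rank, members of the cilium, repair, retinal and Notch lists, and extremes of spacing, width, gene ends and distance. Other names were chosen after seeing values, and some items under the rule are not reported here. Alternatives changed the distance, score, width, overlap, promoter choice and GC content.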

Additional observations from a re-analysis of the deposited data

How the results depend on the processing

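No paired analysis was possible because each antibody has 1 list with no values per library, and for the same reason no replicate could be left out. The number of regions fell from 530 to 136 with peaks at or above the median score of their list; within 500 bp or 2 kb, with a common stretch of 100 bp, with Foxn4 peaks of at least 150 bp and with exactly 1 peak of each list it stayed within 1.5 times. With peaks at or above the median score, fewer peaks entered and all regions were merged and grouped anew. A region of all 3 lists that kept only its Foxn4 peak then counted as Foxn4 only. The groups compared in this setting are thus not subsets of the main groups. There the odds ratio of the FHL core against Rfx3 only was 1.54 (adjusted exact p = 0.15) and that of the full X-box 0.224 (adjusted exact p = 0.13), both past the threshold otherwise, while the X-box half-site against Foxn4 only became 3.14 (adjusted exact p = 0.00238). The CCAAT box against Foxn4 only gave 1.36. The GC box gave 1.45 against regions with Foxn3 and Rfx3 but no Foxn4 ("without Foxn4" below), 1.09 against Rfx3 only and a reversed 0.615 against Foxn4 only, which within 500 bp was 1.45 (adjusted exact p = 0.334). The forkhead core, never past the threshold, reversed to 1.53 against regions without Foxn4, and within 500 bp to 1.28 against Rfx3 only. The FHL core against regions without Foxn4 reversed to 1.01 with any promoter in reach. Among the other added motifs, 13 odds ratios reversed, none past the threshold in either setting. With the higher peaks these were NRF1 (1.85), YY1 (0.759), ETS (1.35), CRE (1.97) and the TATA box (0.763) against Rfx3 only, CRE (5.36), ZNF143 (0.747) and the TATA box (0.744) against Foxn4 only, and the TATA box (0.646) and E-box (1.29) against regions without Foxn4. NRF1 against Foxn4 only became 0.969 with any promoter and 0.97 stratified by GC, and YY1 against regions without Foxn4 became 1.17 with any promoter. The causes were not tested. The full X-box against Foxn4 only has no finite odds ratio, since the latter had no match. Apart from these cases, the factor motifs and the CCAAT and GC boxes kept their side of the threshold and their direction under all 4 alternatives, and stratifying by GC content ended none of their calls. Shares of regions with 2 or more gene ends and counts of all genes also held.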

Other observations

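Genes of protein folding stood out by eye among the names at these regions, so 4 further lists were written after the names had been seen. Their counts describe these lists with no test, beside the 3.03% of all protein-coding genes. Of 49 genes of ER folding and the unfolded protein response, 17 had an end within 1 kb of a region with all 3 factors (34.7%). They included the lectin chaperones Calr and Canx, the ER Hsp90 gene Hsp90b1, the stress sensor kinase Eif2ak3, the ubiquitin ligase Syvn1 and the stress factor Ddit3. Their peaks were often low in a list: Canx had ranks of 35.8, 67.6 and 3.62 for Foxn3, Foxn4 and Rfx3, and Syvn1 72.7, 0.71 and 68.9. Of 38 cytosolic chaperone genes, 13 had such a region (34.2%), among them Hspa8, Hsph1, Stip1, Stub1 and the chaperonin genes Cct3, Cct7 and Tcp1. Of 60 cell cycle and mitosis genes, 16 did (26.7%), among them Ccna2, Cenpf, E2f3 and Mad2l1, and of 17 tubulin genes 3 did (17.6%), Tuba1a, Tubb4b and Tubb5. Regions with each single factor were frequent too. The ER list had 28 genes with Foxn3, 19 with Foxn4 and 25 with Rfx3, and the chaperone list 15, 17 and 19. Cell cycle genes had 21, 20 and 22, and tubulin genes 3, 3 and 5. Among all protein-coding genes the shares were 8.81%, 4.82% and 10.6%. High shares of folding genes were thus not particular to regions with every factor.

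The ER stress element, a CCAAT box followed after 9 bases by CCACG and known from promoters of ER chaperones, was found in 6 of the 458 promoters (1.31%), those of Alg12, Calr, Canx, Hnrnpa3, Hsp90b1 and Syvn1. It was found in 28 of 17492 promoters in all (0.16%). It was searched after the ER genes had been seen, and no test was made. Promoters with Foxn3 and Rfx3 but no Foxn4 had it in 1 of 654, at Derl3, and those with Foxn3 and Foxn4 but no Rfx3 in 1 of 46, at Hspa5, the main ER chaperone.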
